A study of Saccharomyces cerevisiae with 11 samples.

Results

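The 36 genes described here are the aminoacyl-tRNA synthetase genes of budding yeast (Saccharomyces cerevisiae) together with ARC1, whose protein is a cofactor of such enzymes. They were taken by systematic name, as a family defined by gene function and not by leader length, and 32 of the 36 had a leader call in at least 1 library, against 4549 of 6021 protein-coding genes of the RefSeq table (75.6%). The measured quantity is the transcript leader, the stretch of an mRNA between its 5′ end and the start codon, given as 1 length in nucleotides (nt) per gene and library. There were 7 TATL-seq libraries, 1 from each fraction of a polysome gradient, made from cells labelled BY4742, an S288C derivative with the alleles his3∆1, leu2∆0, lys2∆0 and ura3∆0 and of mating type α. TL-seq from the strain Sigma 1278b, of mating type a with ura3, leu2, trp1 and his3, was made once with tobacco acid pyrophosphatase, the enzyme that opens the cap for adaptor ligation, and once without it. The groups were set against S288C TL-seq, which has 2 biological replicates made with the enzyme; which S288C derivative these cultures were is not stated beyond the strain label. All cultures grew in rich medium with glucose to mid-log phase.

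An aminoacyl-tRNA synthetase joins an amino acid to its tRNA, and its accuracy fixes which amino acid a codon stands for. Yeast translates in the cytosol and in mitochondria, and for most amino acids it has a separate nuclear gene for each compartment. A few genes supply both compartments from 1 locus. HTS1 (histidine) and VAS1 (valine) do so from a pair of in-frame start codons, while ALA1 (alanine) and GRS1 (glycine) start the mitochondrial form at a codon other than AUG that lies upstream of the AUG. CRS1 (cysteine) is also the only gene for its amino acid. For such genes the 5′ end of the mRNA bears on which start codon the message contains. The genes were placed in 3 classes: 5 dual-product, 14 mitochondrial and 16 cytosolic genes, with ARC1 on its own. Which start codon a deposited length runs to is unstated in the sources used here, and so is the number of reads behind it. A call in either S288C TL-seq replicate was present for 28 of the 36 genes, where 64.1% of RefSeq protein-coding genes had one, and in both replicates for 23 (52.2%). In the gradient 23 of the 36 were called in any fraction (60.3% of RefSeq genes) and 12 in at least 5 fractions (34.2%).

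Of the dual-product genes 2 of 5 were called, and in S288C TL-seq these had the longest leaders of the family. In S288C TL-seq ALA1 (YOR335C) had 107 nt in both replicates and GRS1 (YBR121C) had 165 nt in both. HTS1 (YPR033C), VAS1 (YGR094W) and CRS1 (YNL247W) had no call in any of the 11 libraries, so only 2 of the 5 genes could be described. Leaders of 100 nt or more were thus found for 2 of 2 dual-product genes, 0 of 7 mitochondrial and 0 of 13 cytosolic genes called in both replicates, and for 476 of 3144 ORFs of any kind (15.1%). The lowest length listed for any ORF in any library was 0 nt, so the files list no 5′ end that lies inside the ORF.

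ALA1 (chromosome XV, 946233 to 949109 in assembly R64) gave a different length in the gradient. It had 39 nt in each of fractions 1 to 5 and no call in fractions 6 and 7, against 107 nt in both S288C TL-seq replicates, a difference of −68 nt. Neither length occurred in the other set of libraries, and how often that held among all ORFs is not given here. GRS1 (chromosome II, 481364 to 483367) had 173 nt in fraction 3, its single gradient call, against 165 nt in both S288C TL-seq replicates. That difference of 8 nt was below the 10 nt used here to count a change. GRS1 did count as longer once the median difference over all ORFs was subtracted. Neither gene was called in Sigma, with or without the enzyme.

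The list drawn up as other dual-product genes held the tRNA-modifying genes MOD5 and TRM1 and the tRNA CCA-adding gene CCA1. It also held LEU4, GLR1, GRX2, HFA1 and SUC2. Whether each of these genes, HFA1 among them, supplies more than 1 product was not checked here. The list too had few calls, with 4 of 8 genes called in any library, and no gene was called in both S288C replicates. MOD5 had 25 nt in fractions 2 and 6, 25 nt in Sigma, and 199 nt in S288C replicate 1 alone. LEU4 had 52 nt in fractions 3 to 7, CCA1 43 nt in fraction 6 and GLR1 0 nt in fractions 4 and 5. MOD5 thus also had a long and a short length in different sets of libraries, although its long one came from a single library.

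**Figure D1:**
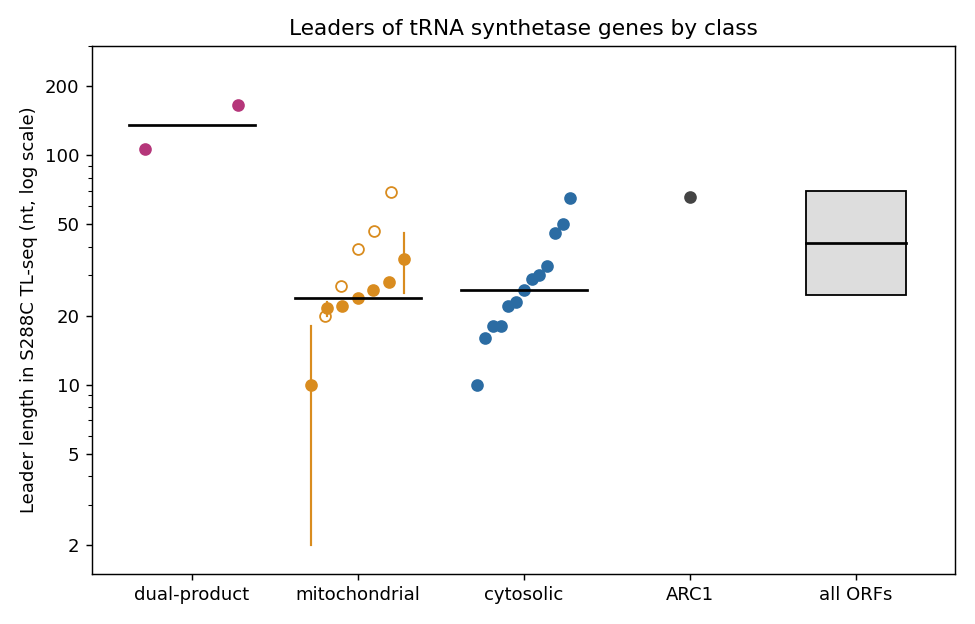
Leader length in S288C TL-seq (nt, log axis) for dual-product, mitochondrial and cytosolic synthetase genes and ARC1, beside all ORFs. Filled points are means of 2 replicates, vertical lines join the replicates, open points are genes called in replicate 1 only, black lines are class medians over filled points, and the box gives the quartiles and median of 3144 ORFs (24.5, 41.5 and 70 nt). ALA1 and GRS1 lie above the box, and every mitochondrial gene called in both replicates lies below its median line.

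Cytosolic synthetase genes had short leaders in S288C TL-seq, with a median of 26 nt over 13 genes called in both replicates, against 41.5 nt over 3144 ORFs. Of the 13, 10 lay below the median of all ORFs, as did 49.9% of all ORFs. All 13 had the same length in both replicates (SD 0, n = 2 for each), where 76.2% of all ORFs did. The longest were CDC60 (YPL160W), for leucyl-tRNA synthetase, at 65 nt and KRS1 (YDR037W), for lysyl-tRNA synthetase, at 50 nt. The shortest were FRS2 (YFL022C), for the α subunit of phenylalanyl-tRNA synthetase, at 10 nt and GUS1 (YGL245W), for glutamyl-tRNA synthetase, at 16 nt. FRS1 (YLR060W), for the β subunit of the phenylalanine enzyme, had 30 nt, so its subunit genes differed by more than their replicates.

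Between these lay the other cytosolic genes. MES1 (YGR264C, methionine) had 46 nt, TYS1 (YGR185C, tyrosine) 33 nt, GLN4 (YOR168W, glutamine) 29 nt and WRS1 (YOL097C, tryptophan) 26 nt. SES1 (YDR023W, serine) had 23 nt, YDR341C (arginine) 22 nt, and ILS1 (YBL076C, isoleucine) and THS1 (YIL078W, threonine) 18 nt each. Only FRS2 fell under 12 nt, a length below which 7.63% of all ORFs lay. DED81 (YHR019C, asparagine), DPS1 (YLL018C, aspartate) and YHR020W (proline) had no S288C TL-seq call, although all 3 were called in Sigma.

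Mitochondrial genes also had short leaders, and several were called in a single replicate. Their median was 24 nt over 7 genes called in both replicates, against 26 nt over the 13 cytosolic genes. All 7 lay below the median of all ORFs. A call in 1 replicate only was found for 5 of 12 mitochondrial genes called in either replicate and for 0 of 13 cytosolic genes, where it held for 715 of 3859 ORFs (18.5%). In all 5 cases that replicate was replicate 1, as it was for 417 of the 715 ORFs (58.3%), and replicate 1 also had more ORF calls, 3561 against 3442 in replicate 2. Depth in each replicate is unknown, and its part in these missing calls was not tested.

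The mitochondrial genes called in both replicates were led by MSE1 (YOL033W, glutamate), with 46 nt in replicate 1 and 25 nt in replicate 2 (35.5 nt ± 14.8, SD, n = 2). MSK1 (YNL073W, lysine) had 2 nt in replicate 1 and 18 nt in replicate 2 (10 nt ± 11.3, SD, n = 2). These were the only members whose replicates lay more than 10 nt apart, so their place in the order of lengths is not fixed by the data. MSR1 (YHR091C, arginine) had 28 nt, MSY1 (YPL097W, tyrosine) 26 nt, MSM1 (YGR171C, methionine) 24 nt and ISM1 (YPL040C, isoleucine) 22 nt, each the same in both replicates. NAM2 (YLR382C), for a leucyl-tRNA synthetase that also takes part in splicing of mitochondrial introns, had 20 and 23 nt (21.5 nt ± 2.12, SD, n = 2).

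In replicate 1 alone MSW1 (YDR268W, tryptophan) had 69 nt, DIA4 (YHR011W, serine) 47 nt, AIM10 (YER087W, proline) 39 nt, MST1 (YKL194C, threonine) 27 nt and SLM5 (YCR024C, asparagine) 20 nt. With these 5 included, the mitochondrial median in replicate 1 was 26.5 nt over 12 genes, against 26 nt over 13 cytosolic genes. MSF1 (YPR047W, phenylalanine) was not called in S288C TL-seq but had 17 or 19 nt in 5 fractions and 19 nt in Sigma. MSD1 (YPL104W), the mitochondrial aspartate gene, had no call in any library.

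For 14 amino acids a mitochondrial and a cytosolic enzyme have separate genes, which allows a comparison within each amino acid. In S288C TL-seq 7 such pairs could be compared, and the mitochondrial gene had the longer leader in 3 and the shorter in 4. The leucine and lysine pairs lay farthest apart by replicate means, with 21.5 nt for NAM2 and 65 nt for CDC60, and 10 nt for MSK1 and 50 nt for KRS1. Which of these 2 pairs was wider depended on the replicate, since MSK1 had 2 and 18 nt. For methionine MSM1 had 24 nt and MES1 46 nt, and for tyrosine MSY1 had 26 nt and TYS1 33 nt. The opposite order was seen for glutamate, with 35.5 nt for MSE1 and 16 nt for GUS1. It was also seen for arginine, with 28 nt for MSR1 and 22 nt for YDR341C, and for isoleucine, with 22 nt for ISM1 and 18 nt for ILS1. The compartment of the enzyme thus went with no one order of leader length in these pairs.

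In the gradient, 7 pairs had values, with phenylalanine counted once for each subunit. The mitochondrial gene was longer in 4, among them MSW1 at 69 nt against WRS1 at 6 nt and SLM5 at 72 nt against DED81 at 22 nt. It was shorter in 3, among them MSM1 at 20 nt against MES1 at 48 nt. The glutamate, methionine and tyrosine pairs had values in both sets of libraries and kept their order.

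**Figure D2:**
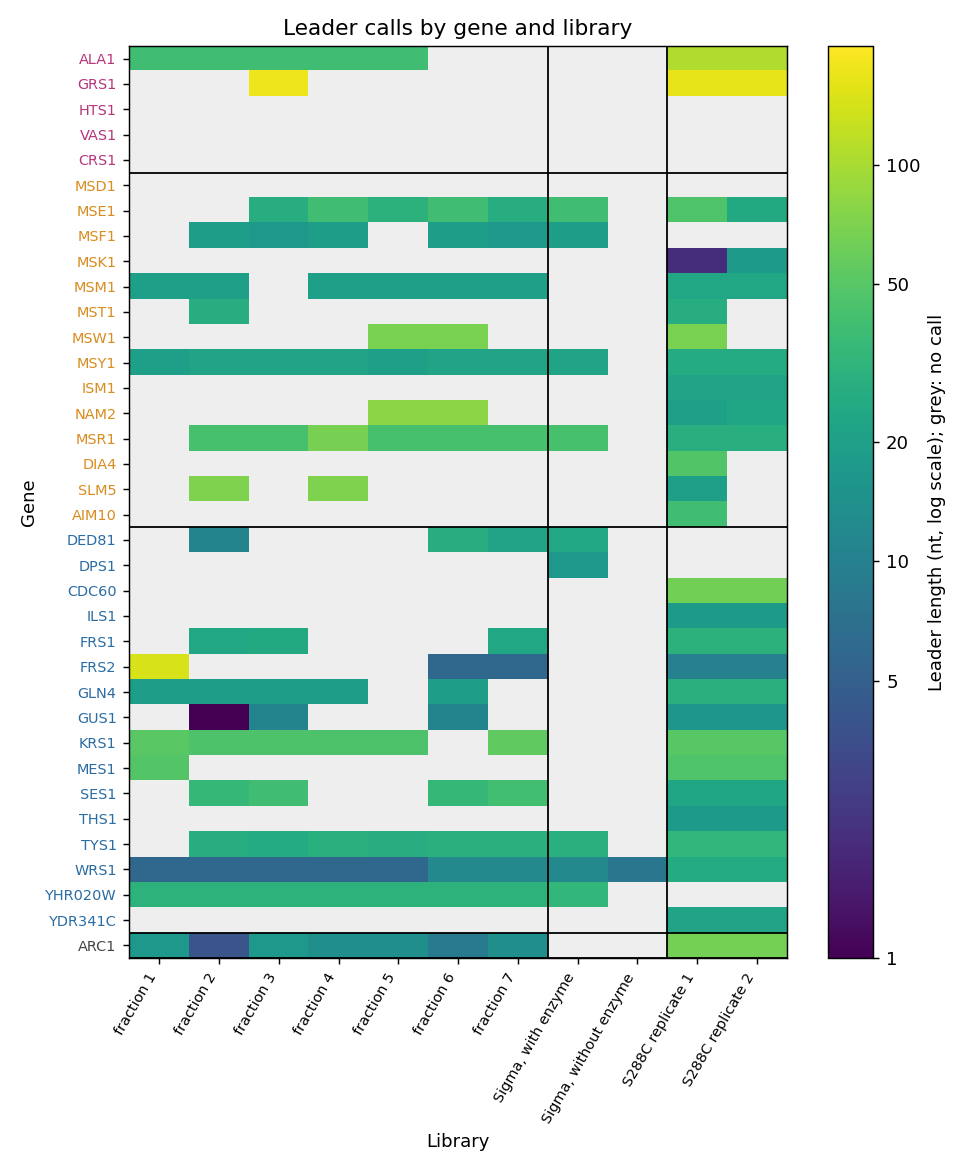
Leader length (colour, nt, log scale; grey for no call) of the 36 genes in the 7 TATL-seq fractions, Sigma TL-seq with and without pyrophosphatase, and the S288C TL-seq replicates. Genes run from dual-product through mitochondrial and cytosolic to ARC1; HTS1, VAS1, CRS1 and MSD1 are grey throughout, and WRS1 is the one row with a call in all 11 libraries.

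Gradient TATL-seq against S288C TL-seq asks whether mRNA from fractions of the polysome gradient gives the same leader as total mRNA. The 2 sets also differ in how the 3′ end was captured and in sequencer, a Genome Analyzer II against a HiSeq. Whether both came from the same S288C derivative is not stated. These differences cannot be told apart here. Of 17 members with a value in both, 4 had a TATL-seq length that was at least 10 nt below the S288C one, as had 33.3% of all ORFs. Another 3 were longer by at least 10 nt, as were 13.5% of all ORFs. The median difference was −5 nt over the 17 members and −5 nt over all 2553 ORFs compared. In direction alone, 12 of the 17 were shorter in TATL-seq, where 70.2% of all ORFs were, so the family's shares lay near those of all ORFs.

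The members shorter in TATL-seq were ALA1, ARC1, WRS1 and GLN4. ARC1 (YGL105W, chromosome VII, 307437 to 308567), whose protein binds tRNA and holds the MES1 and GUS1 enzymes, had between 4 and 17 nt in the 7 fractions, against 66 nt in both S288C replicates. Its gradient median of 14 nt lay 52 nt below the S288C TL-seq value. GLN4 gave 19 nt in the 5 fractions that called it (1 to 4 and 6), against 29 nt in both S288C replicates. This difference of −10 nt sits at the limit used for a call. It was −5 nt, and no longer counted, once the median difference over all ORFs was subtracted.

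WRS1 (chromosome XV, 136527 to 137825), for tryptophanyl-tRNA synthetase, had 6 nt in each of the first 5 fractions and 12 nt in the last 2 (6 and 7), against 26 nt in both S288C replicates. The gradient values and the S288C values did not overlap, but the share of all ORFs without overlap is not given here. Its median difference was −20 nt.

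The members longer in TATL-seq were NAM2, MSR1 and SES1. NAM2 (chromosome XII, 882067 to 884751) had 79 nt in fractions 5 and 6, its only gradient calls, against 20 and 23 nt in the S288C replicates, a difference of 57.5 nt. MSR1 (chromosome VIII, 284839 to 286770) had 43 nt in 5 fractions (2, 3, 5, 6 and 7) and a single higher value, 67 nt, in fraction 4, against 28 nt in both S288C replicates. SES1 was called at 34 nt in fractions 2 and 6, at 39 nt in fraction 3 and at 40 nt in fraction 7, against 23 nt in both S288C replicates. For all 3 genes every gradient value lay above the S288C values, but the share of all ORFs for which this holds is not given here. SLM5, which could not be counted because it was called in 1 replicate, had 72 nt in fractions 2 and 4, against 20 nt in S288C replicate 1.

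The remaining members compared lay within 10 nt, among them GRS1, KRS1, GUS1, FRS2 and MSE1. For MSE1 this held against the mean of its S288C replicates (46 and 25 nt), while its difference from replicate 1 was −16 nt. For FRS2 it held by the gradient median, although fraction 1 had 146 nt. TYS1 had 26 to 29 nt in 6 fractions against 33 nt in S288C TL-seq, MSY1 20 to 22 nt in 7 fractions against 26 nt, and MSM1 20 nt in 6 fractions against 24 nt. FRS1 had 24 or 25 nt in 3 fractions against 30 nt, and MES1 48 nt in fraction 1 against 46 nt. MSW1 and MST1, like SLM5, were called in S288C replicate 1 only and so were not among the members compared. MSW1 had 69 nt in fractions 5 and 6 and 69 nt in S288C replicate 1, and MST1 27 nt in fraction 2 and 27 nt in S288C replicate 1. Those last 2 genes thus gave 1 length in each library that called them.

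**Figure D3:**
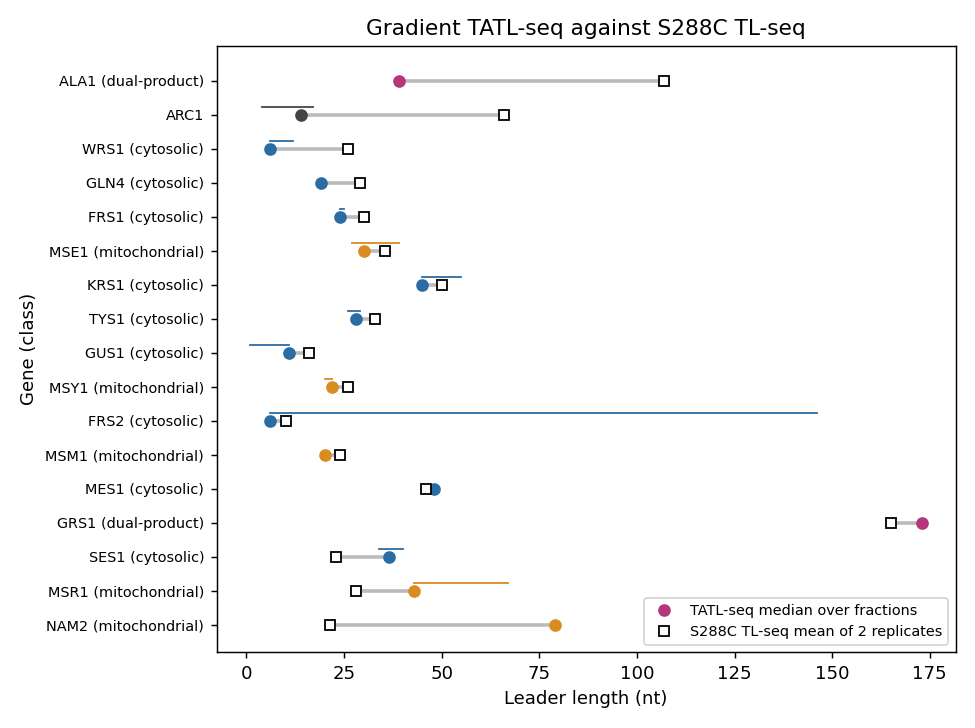
Leader length (nt) of 17 genes with values in both sets, as the TATL-seq median over fractions (filled circle, coloured by class: pink for dual-product, orange for mitochondrial, blue for cytosolic, grey for ARC1) and the S288C TL-seq mean of 2 replicates (open square). Thin lines above the circles give the lowest to highest fraction. ALA1 and ARC1, at the top, are 68 and 52 nt shorter in TATL-seq, and NAM2, at the bottom, is 57.5 nt longer.

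Sigma 1278b was compared with S288C TL-seq to ask whether leaders differ between strains, with strain and sequencer not separable. Only 9 of the 36 genes were called in Sigma with the enzyme, where 31.3% of RefSeq protein-coding genes were. Of these, DED81, DPS1, YHR020W and MSF1 had no S288C TL-seq call. MSE1, at 46 and 25 nt, failed the rule that the S288C replicates differ by at most 10 nt, which left 4 members. Of these, 1 was longer in Sigma by at least 10 nt from both replicates and 1 shorter, where 13.2% and 27.6% of 1324 ORFs were. MSR1 was the longer one, with 43 nt in Sigma against 28 nt in both S288C replicates. WRS1 was the shorter one, with 12 nt in Sigma against 26 nt in both S288C replicates; this call was lost when the median difference over all ORFs was subtracted. TYS1 had 29 nt in Sigma against 33 nt in S288C, and MSY1 22 nt against 26 nt. With 1 Sigma library no gene could be tested.

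Against the gradient, which shares its sequencer with Sigma, none of 8 members lay 10 nt or more from the TATL-seq median, where 19.8% of 1789 ORFs did. MSR1 had 43 nt in Sigma and in 5 of its 6 fractions, and MSF1 had 19 nt in Sigma and 17 or 19 nt in the fractions. MSE1 had 39 nt in Sigma and in fractions 4 and 6, with 27 to 30 nt in fractions 3, 5 and 7. WRS1 at 12 nt in Sigma matched fractions 6 and 7 but not fractions 1 to 5. Both members that differed between Sigma and S288C TL-seq had their Sigma length in some fraction of the S288C-derived gradient. The share of all ORFs for which this holds is not given here, and the part of strain was not tested.

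DED81 and YHR020W, for the asparaginyl and prolyl enzymes, are neighbours on chromosome VIII that are read away from each other, with 437 bp between the ORFs in assembly R64. Both lacked a call in S288C TL-seq and both had one in Sigma and in the gradient. YHR020W had 31 nt in all 7 fractions and 33 nt in Sigma. DED81 was called at 11 nt in fraction 2, at 27 nt in fraction 6, at 22 nt in fraction 7, and at 24 nt in Sigma. DPS1 had 17 nt in Sigma and no call elsewhere.

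The Sigma library without pyrophosphatase lists ends that could be ligated without opening a cap. Of the 36 genes only WRS1 had a call there, where 3.39% of RefSeq protein-coding genes did. WRS1 had 12 nt with the enzyme and 8 nt without it. The 8 nt lie between the 6 nt and 12 nt of the gradient fractions, and no other synthetase gene could be compared.

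Within the gradient, most members that could be compared ranged over less than 10 nt. Of 12 members called in at least 5 of 7 fractions, 4 had a range of 10 nt or more, where 30.9% of 2062 ORFs did, and 4 had the same length in every fraction with a call, where 32.8% of these ORFs did. The median range was 2.5 nt over the 12 members and 4 nt over all ORFs. The 4 constant genes were ALA1 at 39 nt, GLN4 at 19 nt, MSM1 at 20 nt and YHR020W at 31 nt. Each fraction is 1 library and the labels do not say which end of the gradient was heavy.

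The 4 varying members were MSR1, ARC1, MSE1 and KRS1. The range of 24 nt for MSR1 rested on the 67 nt of fraction 4, and without that fraction it was 0 nt. In order of fraction number, ARC1 had 17, 4, 17, 14, 14, 9 and 14 nt, a range of 13 nt that became 8 nt without fraction 2. MSE1 had 27, 39, 30, 39 and 27 nt, starting at fraction 3. KRS1 was at 51 nt in fraction 1, at 45 nt from fraction 2 to fraction 5, and at 55 nt in fraction 7, with a range of 6 nt when fraction 7 was left out. Without fraction 4 the count of varying members was 2, and without fraction 7 it was also 2.

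Of the genes called in 3 fractions, which were not counted above, FRS1 ranged over 1 nt and the other 3 over 10 nt or more. The share of all ORFs called in 3 fractions that ranged so far is not given here. FRS2 was called at 146 nt in fraction 1 and at 6 nt in fractions 6 and 7, against 10 nt in both S288C TL-seq replicates, so its long leader was listed once in these libraries. GUS1 was called at 1 nt in fraction 2 and at 11 nt in fractions 3 and 6, against 16 nt in both S288C replicates. DED81, given above, had a range of 16 nt.

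A steady change of length along the gradient was tested for the 3 members that had a call in every fraction and did not keep a single length. WRS1, with its higher value in fractions 6 and 7, had a Spearman rank correlation with fraction number of 0.79 (exact permutation over 7 fractions, two-sided p = 0.0952, Benjamini-Hochberg adjusted p = 0.70 over 795 ORFs). MSY1 had 0.32 (exact p = 0.571, adjusted p = 0.864) and ARC1 −0.30 (exact p = 0.524, adjusted p = 0.864). None passed, nor did any of the 795 ORFs (0.0%), of which 36 had an unadjusted p under 0.05 in this exact permutation test. The lengths of WRS1 already had the most extreme order that their ties allow, so its exact permutation p could not fall below 0.0952. The same limit held for MSY1, whose lengths were tied in the same way. For WRS1 and MSY1 the test could not have passed. With 7 fractions and adjustment over 795 ORFs, even an ORF with 7 lengths in perfect order could not have passed on its own. The same held for ARC1, which also had tied lengths. The test therefore does not decide whether a trend is present, for these members or for all ORFs.

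**Figure D4:**
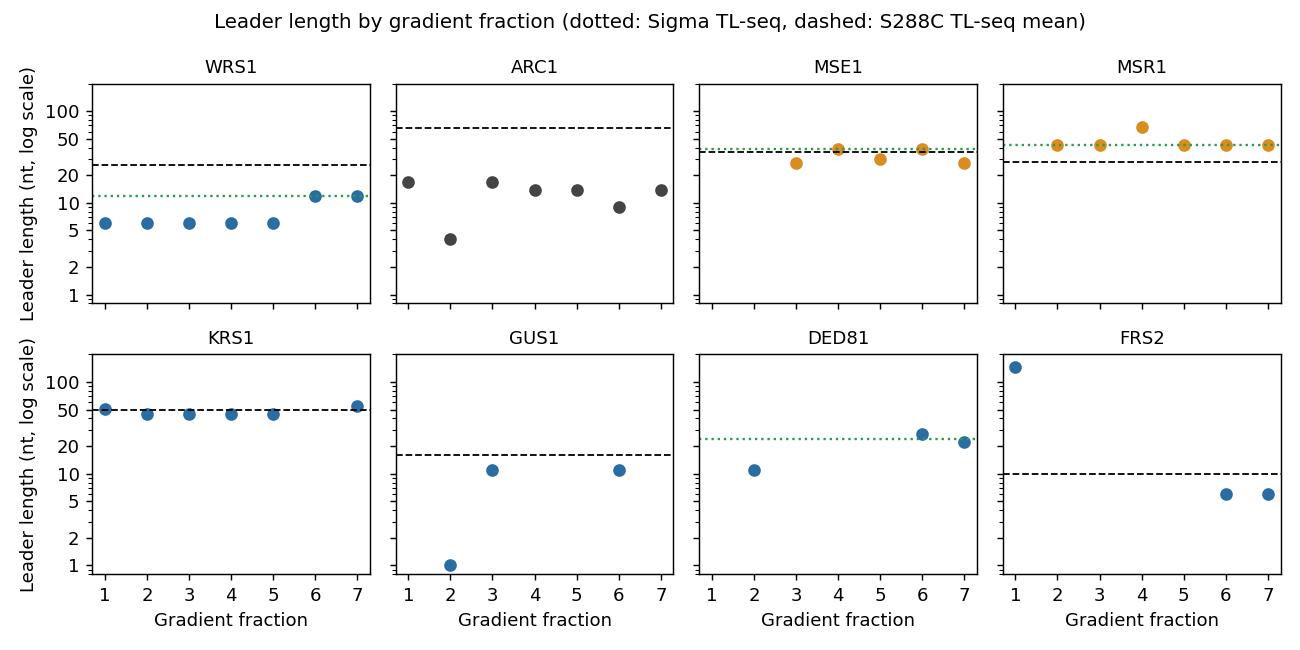
Leader length (nt, log axis) by gradient fraction for 8 genes with more than 1 length along the gradient, as points (orange mitochondrial, blue cytosolic, grey ARC1), with Sigma TL-seq (dotted line) and the S288C TL-seq mean (dashed line) where called. WRS1 has 12 nt, its Sigma length, in fractions 6 and 7 and 6 nt in the others, ARC1 stays far below its S288C line, and the 146 nt of FRS2 occurs in fraction 1 alone.

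Genes that act beside the synthetases were looked at for the same features. The list held GTF1, HER2 and PET112, for the subunits that turn mischarged glutamate into glutamine on mitochondrial tRNA, FMT1, which formylates the mitochondrial initiator tRNA, the elongation factor genes TEF1, TEF2 and TUF1, PTH1, PTH2, DTD1 and the tRNA exporter gene LOS1. In S288C TL-seq their median was 27 nt over 7 of 11 genes called in both replicates. The 4 longest of these 7, which were picked for their S288C lengths, had values lower by at least 10 nt in the gradient. Of all ORFs, 33.3% were lower by at least 10 nt and 70.2% by any amount. TUF1, the mitochondrial elongation factor gene, had 7 nt in fractions 3 and 7 against 85 nt in both S288C replicates, and FMT1 had 30 nt in fractions 2 and 4 against 67 nt. LOS1 had 21 nt in all 7 fractions against 41 nt, and DTD1, for a D-aminoacyl-tRNA deacylase, had 11 to 13 nt in 7 fractions against 27 nt. DTD1 also had 11 nt in Sigma both with and without the enzyme. It was called in all 11 libraries, like WRS1. HER2 had 0 nt in fractions 3 and 4 against 19 and 31 nt in the S288C replicates. TEF2 had 18 to 22 nt in 7 fractions against 23 nt in both S288C replicates. PET112 went the other way, with 26 to 31 nt in 6 fractions and 26 nt in Sigma, against 17 nt in both S288C replicates.

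The surroundings of the genes were compared by class, as a description. In assembly R64 the nearest upstream protein-coding neighbour was read in the opposite direction, head to head, for 3 of 5 dual-product, 6 of 14 mitochondrial and 13 of 16 cytosolic genes, and for 51.3% of 6002 nuclear genes. Gaps to that neighbour had medians of 505, 287 and 465 bp in the dual-product, mitochondrial and cytosolic classes, against 453 bp over all genes. The longest leader of each of the 32 called members ended short of its upstream neighbour. In S288C TL-seq, leaders longer than the gap were found for 9 of 3131 ORFs (0.287%). The genomic spans of the ORFs had medians of 2304 bp for dual-product, 1670 bp for mitochondrial and 1806 bp for cytosolic genes, against 1200 bp over all genes.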

How the data were processed

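The authors deposited 1 leader length per gene and library, whole nucleotides with no header, reads or depth. Per the submitters' processing notes reads were aligned with Bowtie, and the build sacCer3 is named for the Sigma and TATL-seq libraries. The rule for calling a length, the read minimum and the annotation are unstated in the sources used here. A gene missing from a file was treated as having no call. Length is not abundance, so no expression was computed, and intervals from reads cannot be given.

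Names, positions and neighbours came from the RefSeq table of assembly R64, in which all 36 members matched; strand was read from the systematic name. The family was defined by function, but it, the classes and the lists were chosen with earlier results of these data known. CRS1 was classed from general knowledge. All members are named, with full values for dual-product genes, class extremes and genes that differed. Classes were described by counts and medians beside all ORFs, without tests, because genes are not replicates. A member differed in Sigma when it lay at least 10 nt from both S288C replicates on 1 side and these lay within 10 nt of each other. Trends used exact permutation of the 7 fractions with Benjamini-Hochberg adjustment at 0.05. The scripts (Python 3.11.15, NumPy 2.4.6, pandas 2.3.3) were tested on simulated data. Start codons within leaders and the second in-frame start were planned but not analysed here, as no sequence was used.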

Additional observations from a re-analysis of the deposited data

How the results depend on the processing

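Each result was recomputed with 1 choice changed. The class medians kept dual-product genes longest wherever they had a value, but this did not hold gene by gene. ALA1 had 39 nt in TATL-seq, the same as the median over all ORFs there. It lay below NAM2 at 79 nt and MES1 at 48 nt, among others. The dual-product median of 136 nt became 106 nt with TATL-seq medians (39 nt, from ALA1 alone, without fraction 3, the one gradient call of GRS1; this setting was chosen after seeing the data) and 107 nt with GUS1 counted as dual-product, and stayed at 136 nt with either S288C replicate left out. The mitochondrial median of 24 nt became 30.5 nt in Sigma and 30 nt in TATL-seq, and lay between 24 and 26.5 nt with a replicate left out. The cytosolic median of 26 nt became 24 nt in Sigma and 24 nt in TATL-seq, and 27.5 nt with GUS1 moved or ARC1 added; it was 26 nt with either replicate left out. Mitochondrial and cytosolic medians thus changed order between settings. For Sigma against S288C, the 1 longer and 1 shorter member became 0 and 0 at 20 nt and 0 and 0 against TATL-seq medians; subtracting the median difference of −5 nt left 0 shorter. Leaving out a replicate gave 1 to 2 longer and 1 shorter; the second longer member without replicate 1 was MSE1. For TATL-seq against S288C TL-seq, 3 longer became 1 at 20 nt (NAM2) and 1 with at least 5 fractions (MSR1), and 4 shorter became 9 at 5 nt. Subtracting the median difference gave 4 longer, with GRS1 added, and 3 shorter, without GLN4. Leaving out replicate 1 gave 3 longer and 4 shorter, and leaving out replicate 2 gave 4 and 5, with SLM5 and MSE1 added. The 4 members with a range of 10 nt or more became 1 at 20 nt, 7 with at least 3 fractions, and 1 with all 7 fractions; leaving out a fraction gave between 2 and 4. Mitochondrial genes called in S288C TL-seq numbered 7 in both replicates and 12 in at least 1. No trend passed over fractions 2 to 7, a test limited in the same way by tied lengths and by the few fractions. The counts of differing or varying members at changed settings are given without the share of all ORFs. They therefore do not show whether the members moved differently from all ORFs. The cause of the changes between settings was not tested. The unknown depth limits every missing call. No paired analysis was possible because the S288C replicates have no numbered partner in another group.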
